A study of Mus musculus with 12 samples.

Results

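The genes described here are 38 mouse genes whose products carry cells through mitosis: cyclins and their kinase, the kinases and motors of the spindle, the kinetochore and its checkpoint, and the machinery that splits the cell. They were taken by symbol from the deposited expression table, and all 38 were found among its 24432 genes. RNA sequencing had been done on 12 libraries in 4 groups of 3. Allograft tumors (genotype Lats1-/-;Lats2-/-, mixed source) were collected 6 weeks after cells without either gene were placed under the kidney capsule of NOD/scid hosts aged 6 to 8 weeks, a strain that lacks mature T and B cells. Lung metastases and primary kidney tumors came from Slc34a1CreERT2;Lats1/2flox/flox mice of mixed background, 4 months after 3 tamoxifen injections given at 1 month of age; the Slc34a1 promoter restricts the Cre recombinase to proximal tubule cells. The proximal tubule group, described as wild type, consisted of cells sorted for a red reporter from Slc34a1CreERT2;Lats1c/c;Lats2c/+;RosaTomato mice. These cells thus carried the same Cre driver and conditional Lats1 alleles, but were heterozygous for the conditional Lats2 allele, unlike the tumor mice. Whether their Lats alleles had recombined is not given. The labels do not say whether the 3 libraries of a group came from separate animals, or whether a metastasis and a primary tumor came from the same mouse. The p-values thus measure the spread between libraries, pooled over the 4 groups.

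In mitosis, cyclin A and cyclin B with Cdk1 start chromosome condensation and spindle building, Aurora and Polo kinases mature the centrosomes and correct chromosome attachments, and the checkpoint proteins hold the anaphase-promoting complex, a ubiquitin ligase, inactive until every kinetochore is attached. The complex and its partner Cdc20 then mark cyclin B for destruction, and kinesins with Prc1, Anln and Ect2 build the midzone and the contractile ring. Most of these genes are transcribed late in the cell cycle, and resting epithelium of the adult kidney divides rarely. Lats1 and Lats2 are kinases of the Hippo pathway, which keep YAP and TAZ, a pair of transcription coactivators, out of the nucleus.

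Expression was deposited as FPKM, which scales fragment counts by transcript length and library depth, so levels can be compared between genes. Depth, estimated from the steps between low values, was 11300000 to 18600000 fragments in the tumors and 4800000 to 6200000 in the sorted cells. A single fragment on a transcript of 2 kb is therefore worth 0.0269 to 0.0444 FPKM in tumors and 0.0808 to 0.104 FPKM in proximal tubule cells. The summed FPKM of all genes ran from 1.35e+06 to 2.53e+06 in tumors and from 706093 to 738052 in proximal tubule cells, and 1 gene, Mir6236, took 23.5% to 42.8% of the sum in each tumor library. Lats1 stood at 5.60, 7.82 and 7.29 FPKM in allograft tumors, at 9.54, 10.4 and 10.7 in metastases, at 12.3, 13.0 and 14.7 in primary tumors and at 11.9, 12.7 and 12.8 in proximal tubule cells, and Lats2 at 12.2, 16.6 and 17.1 in allograft tumors, 22.5, 19.9 and 22.4 in metastases, 19.5, 12.97 and 21.4 in primary tumors and 10.5, 10.7 and 10.96 in proximal tubule cells. A level over the whole gene does not show the loss of single exons, so these values do not check the genotype. Primary tumors 2 and 3 stood apart from primary tumor 1 in kidney markers. The 12 proximal tubule markers, all above 1 FPKM in primary tumors 2 and 3, summed to 266 FPKM in primary tumor 1 but to 62886 and 14915 FPKM in primary tumors 2 and 3, against 10760 to 11316 FPKM in the sorted proximal tubule cells; most of that sum in primary tumors 2 and 3 was the single gene Kap (53375 and 12895 FPKM). Counts and changes against the primary tumors are therefore also given without these libraries where this alters them.

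On the deposited FPKM scale the 38 genes stood highest in allograft tumors, next in metastases, and lowest in sorted proximal tubule cells, and the primary tumors were split. The median level of the 38 was 36.5, 21.1 and 27.5 FPKM in allograft tumors 1 to 3, 14.2, 16.4 and 13.4 FPKM in metastases 1 to 3, 10.2, 1.45 and 1.603 FPKM in primary tumors 1 to 3, and 0.639, 0.913 and 0.669 FPKM in proximal tubule libraries 1 to 3. Among all genes of a library, that median lay at percentiles 80.5 to 86.9 in allograft tumors, 71.9 to 76.5 in metastases, 66.4, 42.3 and 41.1 in primary tumors and 48.2 to 50.8 in proximal tubule cells. As a share of the summed FPKM of the library, the 38 genes together took 0.0647% to 0.0733% in allograft tumors, 0.0411% to 0.0531% in metastases, 0.0331%, 0.00605% and 0.00747% in primary tumors 1 to 3 and 0.00713% to 0.00942% in proximal tubule cells. By percentile, primary tumors 2 and 3 were thus below the proximal tubule cells, and by share primary tumor 2 was below them and primary tumor 3 within their range. Both measures depend on the other genes of a library. Mir6236 took 27.1% and 34.3% of the sum in primary tumors 2 and 3. In proximal tubule libraries it was not the most abundant gene. The median of all genes was 3.15 and 3.71 FPKM in primary tumors 2 and 3, against 0.768 to 0.859 FPKM in proximal tubule cells. The order by share thus rests on sums of which Mir6236 was a much larger part in primary tumors 2 and 3. It is not to be read as an order of the 38 genes themselves, and shares without Mir6236 were not tested. All 38 genes were at or above 1 FPKM in the allograft tumors, the metastases and primary tumor 1, whereas 26 and 29 were in primary tumors 2 and 3, and 8, 16 and 12 in proximal tubule cells. For 36 of the 38 genes the group means fell in the order allograft tumor, metastasis, primary tumor, proximal tubule; the exceptions were Spc25 and Cdca8. In bulk RNA, more dividing cells and more RNA per dividing cell cannot be told apart.

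**Figure D1:**
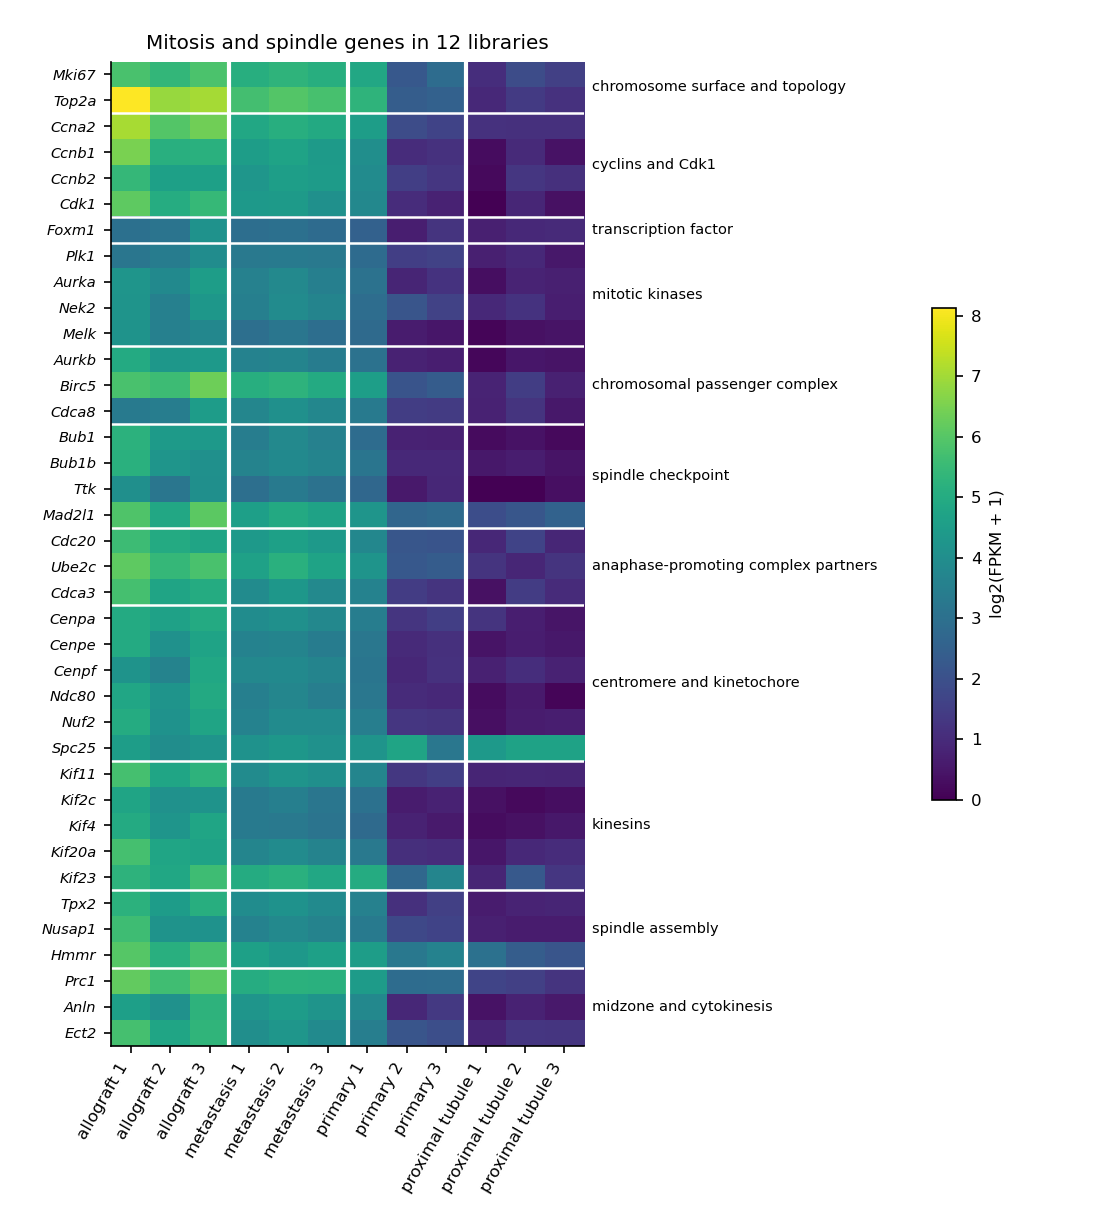
Level of each of the 38 genes (rows, grouped by role) in each of the 12 libraries (columns, grouped by sample type), as log2(FPKM + 1) in colour. Allograft tumors have the highest values in nearly every row and proximal tubule cells the lowest, and the columns of primary tumors 2 and 3 are close to those of proximal tubule cells. The row of Spc25 is nearly even.

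**Figure D2:**
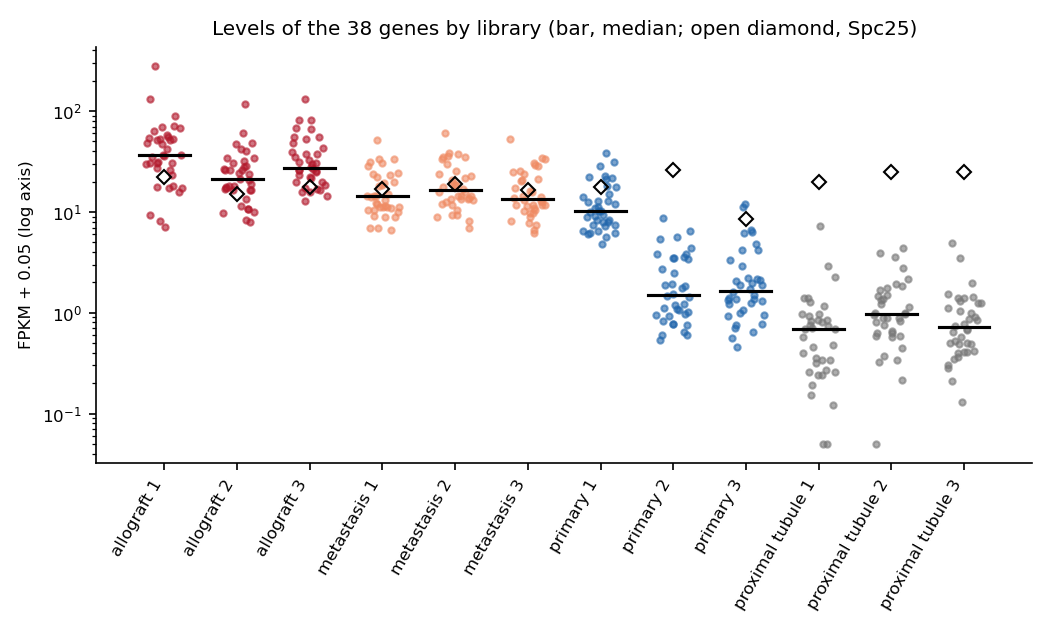
FPKM of the 38 genes in each library on a log axis, with 0.05 added to each value so that zeros can be drawn; the bar is the median of the 38 and the open diamond is Spc25. The medians lie between 21.1 and 36.5 FPKM in allograft tumors, between 13.4 and 16.4 in metastases, at 10.2, 1.45 and 1.603 in primary tumors and under 1 in proximal tubule cells.

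The split of the primary tumors ran through nearly the whole set. In primary tumor 1, 37 of the 38 genes were above their levels in primary tumors 2 and 3, Spc25 being the exception. In the same tumor 35 genes were below all 3 metastases, and Kif23, Spc25 and Hmmr lay within the range of the metastases. The members of primary tumor 1 kept nearly the order of those in the metastases: the Spearman correlation of the 38 levels between primary tumor 1 and each metastasis was 0.955 to 0.9696, against 0.974 to 0.983 between metastases, a description over genes that share a library and its normalization. In primary tumors 2 and 3 together, 32 of the 38 genes were above every proximal tubule library; Cdk1, Foxm1, Kif20a, Cenpf, Spc25 and Cdca3 were not. The spread between the libraries of a group was correspondingly unequal. The median SD of the 38 genes on the log2(FPKM + 1) scale was 0.44 in allograft tumors, 0.14 in metastases, 1.245 in primary tumors and 0.22 in proximal tubule cells (n = 3 each), beside 0.31, 0.12, 0.37 and 0.14 over all genes tested.

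Comparisons were made with limma on log2(FPKM + 1) over 16313 genes, those at 1 FPKM or more in at least 3 libraries, with all 12 libraries in the fit and Benjamini-Hochberg adjustment over all genes; a gene was called at an adjusted p under 0.05. All 38 genes passed the filter. Of these, 19 were under 1 FPKM in all 3 proximal tubule libraries and passed through the tumors alone. A log2 change on this scale understates the change of genes with low levels. The 3 comparisons with proximal tubule cells share the same 3 proximal tubule libraries. For each gene 1 spread was estimated over all 4 groups. The SE and p-value of every comparison thus include the spread of the primary tumors (median SD of the 38, 1.245), also where these are not compared.

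Allograft tumors had higher levels than proximal tubule cells in 37 of the 38 genes, with Top2a, Ccna2 and Cdk1 at the top. In that comparison 52.2% of all genes tested were called higher and 16.9% lower, and the median change of the 38 genes was 4.08 and that of all genes 0.66 on the log2 scale. In the comparison of metastases with proximal tubule cells 37 genes were again called higher, beside 54.0% of all genes called higher and 14.4% lower, with a median change of 3.16 against 0.68 over all genes. None of the 38 was called lower in either comparison. In both, the exception was Spc25. Without any fit, all 3 allograft tumors were above all 3 proximal tubule libraries in 37 of the 38 genes and below them in 0, beside 55.9% and 19.7% of all genes. All 3 metastases were above in 37 and below in 1, Spc25, beside 62.7% and 20.7%. Leaving out any 1 of the 12 libraries left 37 genes called higher in each comparison. The scaling moved the median of all genes: when each library was rescaled to the same sum it was -0.37 in place of 0.66 for allograft tumors and -0.18 in place of 0.68 for metastases, and 33.7% and 43.7% of all called genes were higher in place of 75.6% and 78.9%. Relative to that median 37 of the 38 again lay above it in both comparisons, 37 were called higher and Spc25 was called lower.

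In primary tumors against proximal tubule cells 17 of the 38 genes (44.7%) were called, all higher. Of all genes 48.2% were called higher and 4.90% lower, so this count is no result about the 38. The median change of the 38 was 1.29, against 0.59 over all genes. All 3 primary tumors were above all 3 proximal tubule libraries in 32 genes and below in 0, beside 56.7% and 5.52% of all genes. The count rested on which primary tumors and which scaling were used: it was 31 without primary tumor 2, 31 without primary tumor 3 and 37 without both, beside 46.0%, 46.8% and 43.8% of all genes called higher in those fits. After rescaling to the same sum it was 2, beside 18.6% of all genes called higher, with a median of all genes of -0.29, and 35.9% of all called genes were higher in place of 90.8%. Without primary tumor 1 the median change of the 38 was 0.56 beside 0.57 over all genes, and 14 of the 38 were called higher, beside 44.7% of all genes.

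**Figure D3:**
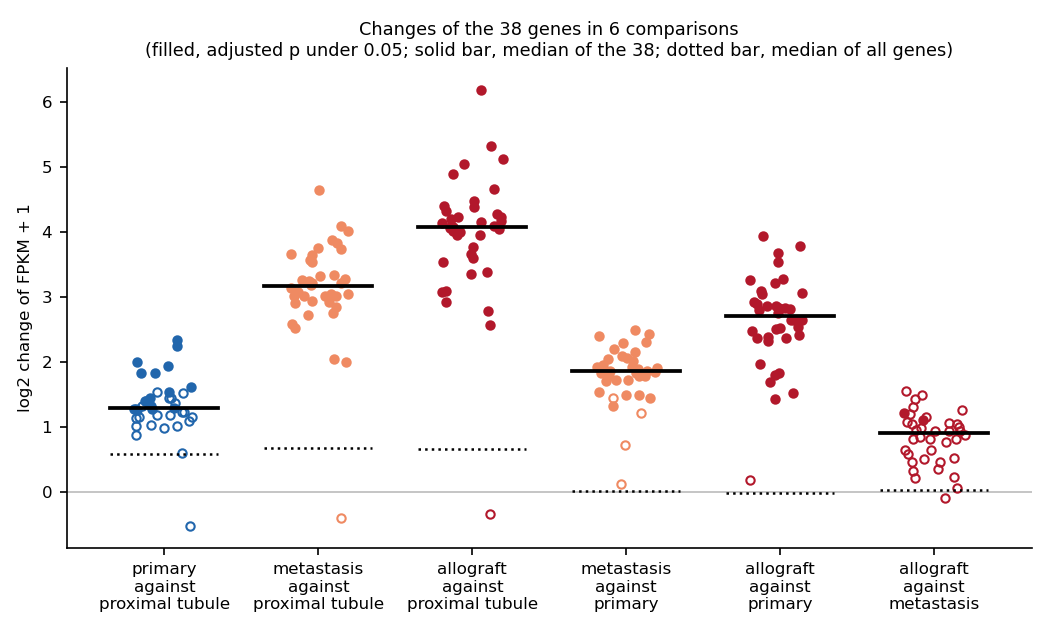
Log2 change of FPKM + 1 of each of the 38 genes in the 6 comparisons; filled points have an adjusted p under 0.05, the solid bar is the median of the 38 and the dotted bar the median of all 16313 genes tested. The solid bar stands at 1.29, 3.16 and 4.08 against proximal tubule cells, at 1.86 and 2.70 against primary tumors and at 0.90 for allograft tumors against metastases.

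Metastases exceeded primary tumors in 34 of the 38 genes, beside 11.3% of all genes called higher and 9.59% lower, and the median change of the 38 was 1.86 against 0.01 over all genes. Hmmr, Kif23, Nusap1 and Spc25 were not called. All 3 metastases were above all 3 primary tumors in 35 genes and below in 0, beside 21.9% and 20.1% of all genes tested. Here the calls depended on single libraries: the count was 5, 2 and 5 without metastasis 1, 2 or 3, 3 without primary tumor 2, 2 without primary tumor 3 and 37 without primary tumor 1. The shares of all genes called higher in those 6 fits were 6.78%, 5.20%, 5.36%, 6.19%, 5.90% and 20.2% in the same order. Set against primary tumor 1 alone, a single library assumed to vary like the other groups, the metastases had a median change of 0.48 and 0 calls, beside 3.70% of all genes called higher, and 0 of the 38 were called when only these groups entered the fit, beside 4.36% of all genes. Nek2 and Prc1 alone were called whichever library was left out.

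Allograft tumors exceeded primary tumors in 37 of the 38 genes, beside 20.5% of all genes called higher and 21.1% lower, with a median change of 2.70 against -0.02 over all genes. Spc25 was not called. All 3 allograft tumors were above all 3 primary tumors in 36 genes and below in 0, beside 21.2% and 22.5% of all genes. After rescaling to the same sum the median of all genes was -0.24, 31.9% of all called genes were higher in place of 49.3%, and 35 of the 38 were called. With the 50 most abundant genes left out of the scaling, that share was 29.4% and 35 were again called. Against primary tumor 1 alone the median change was 1.35 and 24 genes were called, beside 9.09% of all genes called higher. Between allograft tumors and metastases the median change was 0.90 against 0.03 over all genes. Ect2 and Hmmr were the genes called higher, beside 10.4% of all genes called higher and 13.3% lower, and none of the 38 lower. All 3 allograft tumors were above all 3 metastases in 29 of the 38 genes and below in 0, beside 24.8% and 23.6% of all genes. Rescaling to the same sum left 0 calls and a higher share of 17.5% among all called genes in place of 44.0%, and leaving the 50 most abundant genes out of the scaling left 0 calls and 23.8%. In fits of other libraries 23 genes were called without primary tumor 1, 21 without primary tumors 2 and 3, and 20 when only allograft tumors and metastases were fitted, beside 13.8%, 16.3% and 11.2% of all genes called higher. The count was 3 without primary tumor 2, 1 without proximal tubule library 1 or 3, and 0 without allograft tumor 1 or 3, without metastasis 1, 2 or 3, or without proximal tubule library 2.

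Many late cell cycle genes carry a CCAAT box, bound by NF-Y, and a cell cycle genes homology region (CHR), bound by the MuvB complex, close to their start. RefSeq windows in build GRCm38.p6 were at hand for 33 of the 38 genes, in 35 windows; Ccna2, Tpx2, Kif20a, Foxm1 and Aurkb had none in the table used. From 200 bases before to 30 after the start, on both strands, CCAAT was searched (also as ATTGG), and the CHR as TTTGAA or TTCGAA (also as TTCAAA); matches may share bases with each other. The box was found in 27 of the 35 windows (77.1%), against 31.7% of all 32851 windows of the table, the CHR in 23 (65.7%) against 14.8%, and both in 21 (60%) against 4.85%. Windows of the listed anaphase-promoting complex genes held both in 0 of 18, those of S phase genes in 4 of 28, those of the further kinetochore genes in 9 of 32, those of the further spindle, centriole and cytokinesis genes in 11 of 32 and those of mitotic entry regulators in 4 of 12. Condensin, cohesin and separase genes had both in 4 of 14 windows. Genes of MuvB, E2F, pocket proteins and NF-Y had both in 4 of 27, and G1 cyclins, kinases and inhibitors in 0 of 16. Birc5, Mad2l1, Melk, Ndc80, Nuf2 and Nusap1 held neither in this window. A match describes the sequence and is not evidence of binding. The windows below are printed 5′ to 3′ on the gene's strand, with matches in capitals, to show how the motifs are placed: Ccnb2 (chr9:70421525-70421754), Cdk1 (chr10:69352883-69353112), Cdc20 (chr4:118437314-118437543), Top2a (chr11:99024160-99024389), Ccnb1 (chr13:100786457-100786686) and Spc25 (chr2:69206184-69206413), all on the minus strand. In Ccnb1, which holds no CHR of these letters, the related TTTAAA is in capitals.
Ccnb2: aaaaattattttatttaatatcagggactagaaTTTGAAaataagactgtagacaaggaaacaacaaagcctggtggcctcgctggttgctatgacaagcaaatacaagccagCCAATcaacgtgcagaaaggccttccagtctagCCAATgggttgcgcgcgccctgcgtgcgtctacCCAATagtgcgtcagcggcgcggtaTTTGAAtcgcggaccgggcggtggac
Cdk1: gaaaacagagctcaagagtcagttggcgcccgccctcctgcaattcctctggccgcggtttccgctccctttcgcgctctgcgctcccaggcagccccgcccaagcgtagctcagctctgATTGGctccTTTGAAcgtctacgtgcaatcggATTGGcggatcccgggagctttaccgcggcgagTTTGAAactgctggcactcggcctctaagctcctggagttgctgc
Cdc20: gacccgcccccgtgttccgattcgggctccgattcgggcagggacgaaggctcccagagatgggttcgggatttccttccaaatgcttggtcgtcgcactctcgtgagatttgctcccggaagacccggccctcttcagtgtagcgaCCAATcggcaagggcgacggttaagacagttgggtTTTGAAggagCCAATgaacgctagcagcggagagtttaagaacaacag
Top2a: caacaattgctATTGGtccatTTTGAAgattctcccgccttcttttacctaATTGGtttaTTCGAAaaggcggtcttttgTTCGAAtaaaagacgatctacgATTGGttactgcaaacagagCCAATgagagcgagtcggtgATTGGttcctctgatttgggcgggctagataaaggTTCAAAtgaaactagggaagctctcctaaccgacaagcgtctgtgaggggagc
Ccnb1: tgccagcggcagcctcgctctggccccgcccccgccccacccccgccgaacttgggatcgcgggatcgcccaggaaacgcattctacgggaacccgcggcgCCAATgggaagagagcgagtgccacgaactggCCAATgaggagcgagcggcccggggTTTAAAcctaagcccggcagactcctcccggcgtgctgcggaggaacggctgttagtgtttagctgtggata
Spc25: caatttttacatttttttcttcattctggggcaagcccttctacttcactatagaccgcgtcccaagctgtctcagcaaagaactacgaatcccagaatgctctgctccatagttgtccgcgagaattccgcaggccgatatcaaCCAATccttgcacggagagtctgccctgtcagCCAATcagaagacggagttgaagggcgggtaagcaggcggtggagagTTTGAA

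In Ccnb2, the boxes begin 87, 54 and 21 bases before the start, 33 bases apart, and a CHR begins 167 bases before and another 5 bases after it. Cdk1 has boxes 80 and 48 bases before its start and CHRs 71 and 15 bases before it. Cdc20 has boxes 53 and 8 bases before its start with a CHR between them, 18 bases before it. Top2a holds the most matches of the printed windows, with boxes at 189, 149, 98, 78 and 58 bases and CHRs at 179, 140, 120 and 23 bases before its start. Ccnb1 has boxes 99 and 67 bases before its start. Spc25, whose level did not follow the others, has boxes 55 and 23 bases before its start and a CHR 25 bases after it. Pairs of boxes on the same strand with starts 31 to 34 bases apart, a spacing looked for after these sequences had been seen, occurred in 9 of the 35 windows (25.7%) and in 0.810% of all windows.

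**Figure D4:**
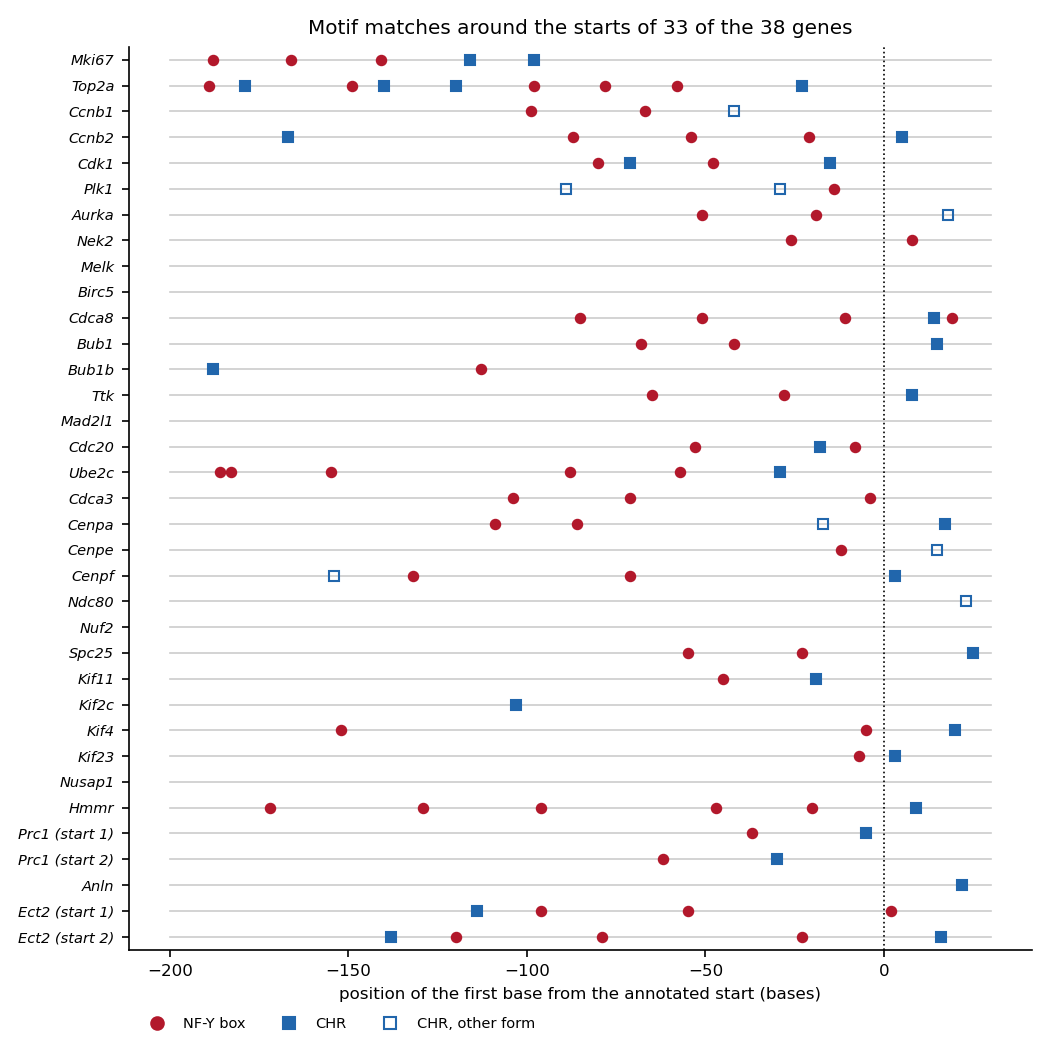
Position of each motif match from 200 bases before to 30 after the annotated start (dotted line) in the 35 windows of 33 genes, in bases from the start; circles are NF-Y boxes, filled squares the CHR and open squares its TTTAAA form. Most matches lie within about 100 bases of the start, and 6 genes have neither box nor CHR.

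Mki67 and Top2a act on the chromosomes themselves: Ki-67 coats the surface of mitotic chromosomes and is the usual histological marker of cycling cells, and topoisomerase II alpha untangles sister DNA. Mki67 had 54.5, 40.6 and 55.9 FPKM in allograft tumors, 33.4, 37.99 and 33.5 in metastases, 28.7, 3.74 and 6.34 in primary tumors and 1.11, 2.70 and 1.94 in proximal tubule cells. Each tumor library was above each proximal tubule library, and the primary tumors alone spanned the gap between the others. It rose by 4.16 ± 0.54 in allograft tumors and by 3.66 ± 0.54 in metastases (log2 ± SE against proximal tubule cells, limma adjusted p = 6.56e-05 and 0.000172), and by 1.83 ± 0.54 in primary tumors (adjusted p = 0.0155, but 0.056 without proximal tubule library 1). The change in primary tumors was 1.05 without primary tumor 1 and 3.39 without primary tumors 2 and 3. Top2a had 281, 117 and 131 FPKM in allograft tumors, 51.7, 61.0 and 53.3 in metastases, 38.4, 4.31 and 4.81 in primary tumors and 0.914, 1.62 and 1.24 in proximal tubule cells. It was the highest of the 38 genes in the 7 libraries of allograft tumors, metastases and primary tumor 1. On the log2(FPKM + 1) scale it had the largest change in 2 of the comparisons with proximal tubule cells: 6.19 ± 0.65 in allograft tumors (adjusted p = 1.98e-05) and 4.65 ± 0.65 in metastases (adjusted p = 0.000128).

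Among the cyclins, cyclin A2 acts in S phase and at mitotic entry, and the B cyclins activate Cdk1 for mitosis itself. Ccna2 had 133, 60.9 and 82.2 FPKM in allograft tumors, 28.6, 33.3 and 29.4 in metastases, 21.9, 2.68 and 2.14 in primary tumors and 1.22, 1.17 and 1.21 in proximal tubule cells. Ccnb1 had 89.1, 34.001 and 35.0 FPKM in allograft tumors, 22.0, 25.2 and 20.5 in metastases, 15.1, 1.06 and 1.21 in primary tumors and 0.208, 0.939 and 0.312 in proximal tubule cells. For both genes the allograft tumors did not overlap any other group. Ccnb2 had 42.0, 23.8 and 23.5 FPKM in allograft tumors, 18.4, 22.8 and 21.1 in metastases, 14.1, 1.84 and 1.46 in primary tumors and 0.143, 1.43 and 1.19 in proximal tubule cells. Cdk1 had 69.1, 32.1 and 43.0 FPKM in allograft tumors, 19.5, 20.5 and 16.1 in metastases, 12.9, 1.03 and 0.699 in primary tumors, and 0, 0.827 and 0.299 in proximal tubule cells. Exons of Ccna2 overlap those of Exosc9 on the opposite strand, which stood at 6.68 to 41.2 FPKM. For Cdk1, primary tumor 3 lay below the highest proximal tubule library. The printed promoters of Ccnb1, Ccnb2 and Cdk1 each hold a pair of boxes or more, and those of Ccnb2 and Cdk1 a CHR as well. Against proximal tubule cells Ccna2 changed by 5.33 ± 0.62, Cdk1 by 5.13 ± 0.66 and Ccnb1 by 5.06 ± 0.69 in allograft tumors (adjusted p = 3.36e-05, 6.78e-05 and 9.31e-05). In primary tumors Ccnb1 gave 1.52 ± 0.69 and Cdk1 1.45 ± 0.66 (adjusted p = 0.0842 and 0.0892), values that passed without primary tumor 2 (0.0346 and 0.0489) or without primary tumor 3 (0.0484 and 0.0337). Without primary tumor 1 the changes were 0.55 and 0.48 (adjusted p = 0.252 and 0.249), and without primary tumors 2 and 3 they were 3.47 and 3.38. Ccnb1 gave the largest difference between metastases and primary tumors on the log2(FPKM + 1) scale, 2.49 ± 0.69 (adjusted p = 0.0303, and 0.0766 to 0.0944 without any 1 metastasis). Against primary tumor 1 alone this difference was 0.54.

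Foxm1 encodes the forkhead factor that drives late cell cycle genes together with the MuvB complex. It had 7.08, 7.83 and 16.9 FPKM in allograft tumors, 6.62, 6.95 and 6.12 in metastases, 4.77, 0.592 and 1.33 in primary tumors and 0.645, 0.936 and 0.939 in proximal tubule cells. It was the lowest of the 38 genes in 6 of the 7 libraries of allograft tumors, metastases and primary tumor 1. Primary tumor 2 was below every proximal tubule library. Foxm1 rose by 2.56 ± 0.43 in allograft tumors and by 2.04 ± 0.43 in metastases against proximal tubule cells (adjusted p = 0.000358 and 0.00167), and gave 0.60 ± 0.43 in primary tumors (adjusted p = 0.257). That value was 0.07 without primary tumor 1 (adjusted p = 0.874), 1.00 without primary tumor 2 (adjusted p = 0.0604) and 1.65 with primary tumor 1 as the single primary tumor (adjusted p = 0.00697).

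The mitotic kinases were of moderate level. Plk1, the Polo kinase of centrosomes and mitotic exit, had 8.07, 9.74 and 14.5 FPKM in allograft tumors, 8.80, 9.20 and 8.77 in metastases, 6.16, 1.86 and 2.07 in primary tumors and 0.653, 0.896 and 0.446 in proximal tubule cells. Aurka, the centrosomal Aurora kinase, had 18.0, 13.4 and 22.1 FPKM in allograft tumors, 10.9, 13.1 and 10.3 in metastases, 7.43, 0.778 and 1.28 in primary tumors and 0.221, 0.767 and 0.645 in proximal tubule cells. Plk1 thus overlapped between allograft tumors and metastases, whereas Aurka did not. Nek2, a kinase of centrosome separation, had 17.6, 10.6 and 18.6 FPKM in allograft tumors, 10.4, 14.2 and 11.6 in metastases, 6.43, 3.41 and 2.03 in primary tumors and 0.911, 1.29 and 0.618 in proximal tubule cells. Its primary tumors were nearer to one another than those of Plk1 or Aurka were, and metastases exceeded them by 1.49 ± 0.32 (adjusted p = 0.0104), and by 0.81 against primary tumor 1 alone (adjusted p = 0.264). Melk, a kinase of the AMPK family, had 17.2, 10.7 and 12.7 FPKM in allograft tumors, 6.84, 8.06 and 6.61 in metastases, 5.97, 0.554 and 0.407 in primary tumors and 0.0721, 0.276 and 0.357 in proximal tubule cells.

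Aurkb, Birc5 and Cdca8 encode Aurora B, survivin and borealin of the chromosomal passenger complex, which corrects faulty kinetochore attachments and then moves to the midzone. Aurkb had 30.3, 18.9 and 19.7 FPKM in allograft tumors, 11.1, 11.8 and 9.78 in metastases, 7.36, 0.711 and 0.599 in primary tumors and 0.103, 0.401 and 0.346 in proximal tubule cells. Birc5 had 55.0, 47.1 and 81.0 FPKM in allograft tumors, 33.4, 37.1 and 30.2 in metastases, 22.7, 3.38 and 4.12 in primary tumors and 0.761, 1.78 and 0.693 in proximal tubule cells. Both were higher in every allograft tumor than in every metastasis. Cdca8 behaved otherwise, with 9.21, 9.83 and 21.4 FPKM in allograft tumors, 12.3, 15.9 and 12.5 in metastases, 9.06, 1.79 and 1.65 in primary tumors and 0.701, 1.33 and 0.437 in proximal tubule cells. Allograft tumors 1 and 2 lay below all metastases for this gene. Birc5 rose by 4.90 ± 0.54 in allograft tumors and by 4.09 ± 0.54 in metastases against proximal tubule cells (adjusted p = 2.47e-05 and 8.57e-05).

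The 4 checkpoint genes Bub1, Bub1b, Ttk and Mad2l1 delay anaphase until all kinetochores are attached. Bub1 had 36.1, 20.8 and 20.0 FPKM in allograft tumors, 9.94, 13.4 and 10.9 in metastases, 6.39, 0.718 and 0.661 in primary tumors and 0.193, 0.320 and 0.161 in proximal tubule cells. Bub1b had 34.9, 17.9 and 15.8 FPKM in allograft tumors, 11.4, 13.7 and 11.6 in metastases, 7.96, 0.919 and 0.900 in primary tumors and 0.429, 0.579 and 0.358 in proximal tubule cells. The 4 groups did not overlap for either gene. Ttk, the checkpoint kinase also called Mps1, had 15.7, 8.26 and 15.6 FPKM in allograft tumors, 6.84, 9.17 and 7.41 in metastases, 5.65, 0.483 and 0.881 in primary tumors, and 0, 0 and 0.256 in proximal tubule cells. Mad2l1, the Mad2 subunit that holds Cdc20, had 58.0, 28.3 and 67.6 FPKM in allograft tumors, 23.3, 29.8 and 24.8 in metastases, 18.1, 5.37 and 6.06 in primary tumors and 2.83, 3.52 and 4.92 in proximal tubule cells. Mad2l1 was thus the third highest of the 38 in the group mean of proximal tubule cells. Bub1 was higher in metastases than in primary tumors by 2.16 ± 0.49 (adjusted p = 0.0133, but 0.0541 without metastasis 2 and 0.0566 without primary tumor 3), and by 0.74 against primary tumor 1 alone (adjusted p = 0.299).

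Cdc20, Ube2c and Cdca3 work with the ubiquitin ligases of mitosis: Cdc20 activates the anaphase-promoting complex, Ube2c supplies it with ubiquitin, and Cdca3 promotes mitotic entry through turnover of the kinase Wee1. Cdc20 had 47.0, 30.6 and 26.1 FPKM in allograft tumors, 19.8, 23.7 and 20.3 in metastases, 12.6, 3.55 and 3.31 in primary tumors and 0.881, 2.13 and 0.850 in proximal tubule cells. Ube2c had 68.0, 42.3 and 55.2 FPKM in allograft tumors, 24.5, 34.8 and 25.4 in metastases, 17.6, 3.76 and 4.18 in primary tumors and 1.35, 0.836 and 1.36 in proximal tubule cells. For both genes every allograft tumor was above every metastasis and every primary tumor above every proximal tubule library. Cdca3 had 51.9, 25.8 and 31.1 FPKM in allograft tumors, 14.1, 18.6 and 13.1 in metastases, 11.2, 1.71 and 1.33 in primary tumors and 0.293, 1.70 and 0.983 in proximal tubule cells, so that primary tumor 3 lay within the proximal tubule range. Ube2c changed by 4.67 ± 0.44 in allograft tumors and by 1.83 ± 0.44 in primary tumors against proximal tubule cells (adjusted p = 1.22e-05 and 0.00597). Dropping primary tumor 1 gave 1.197 for Ube2c in primary tumors, and dropping the other two gave 3.10. Exons of Ube2c overlap those of the muscle gene Tnnc2 on the opposite strand, and exons of Cdc20 those of Elovl1. Tnnc2 stood at 63.9 and 71.1 FPKM in allograft tumors 1 and 2 and at 0 to 0.525 FPKM elsewhere, and Elovl1 at 22.8 to 134 FPKM over the 12 libraries. Whether strand was used in counting is not given, so reads from such overlaps cannot be assigned with certainty. The same holds for Kif20a and Cdc23, Kif4 and Pdzd11, Prc1 and Rccd1, Nusap1 and Oip5, and Cdca8 and 9930104L06Rik.

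At the centromere, Cenpa is the histone H3 variant that marks it, Ndc80, Nuf2 and Spc25 belong to the complex that grips microtubules, Cenpe is a kinesin motor of the kinetochore, and Cenpf is a large kinetochore protein that binds microtubules. Cenpa had 30.3, 24.4 and 30.6 FPKM in allograft tumors, 14.4, 15.9 and 12.8 in metastases, 9.97, 1.38 and 1.84 in primary tumors and 1.35, 0.608 and 0.367 in proximal tubule cells. Ndc80 had 27.0, 17.5 and 29.8 FPKM in allograft tumors, 10.5, 12.4 and 10.1 in metastases, 8.26, 1.02 and 0.935 in primary tumors and 0.193, 0.520 and 0.0808 in proximal tubule cells. The allograft tumors were above all other libraries for both. Spc25 did not follow its partners. It had 21.9, 15.0 and 17.7 FPKM in allograft tumors, 16.8, 18.9 and 16.4 in metastases, 17.7, 25.9 and 8.42 in primary tumors and 19.7, 25.0 and 25.0 in proximal tubule cells. It was the highest of the 38 genes in all 3 proximal tubule libraries and in primary tumor 2. Every metastasis was below every proximal tubule library. The changes against proximal tubule cells were -0.35 ± 0.32 in allograft tumors, -0.40 ± 0.32 in metastases and -0.52 ± 0.32 in primary tumors (adjusted p = 0.351, 0.283 and 0.185), and Spc25 was called lower in all 3 under each of the 4 other scalings. The primary tumor value was -0.86 without primary tumor 2 (adjusted p = 0.0231) and -0.11 without primary tumor 3 (adjusted p = 0.7). No annotated gene overlaps Spc25. Spc24, which pairs with Spc25 in the same complex and is named for that reason after the values of Spc25 were seen, had 25.0, 17.0 and 23.0 FPKM in allograft tumors, 16.7, 18.0 and 17.5 in metastases, 11.7, 7.59 and 8.91 in primary tumors and 12.2, 11.6 and 6.16 in proximal tubule cells.

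Of the 5 kinesins, Kif11 slides spindle microtubules apart, Kif2c removes tubulin at kinetochores, Kif4 and Kif20a act on chromosome arms and the midzone, and Kif23 bundles the midzone within the centralspindlin complex. Kif11 had 52.5, 26.5 and 37.7 FPKM in allograft tumors, 14.3, 17.4 and 15.8 in metastases, 12.05, 1.47 and 1.85 in primary tumors and 0.796, 0.837 and 0.807 in proximal tubule cells. Kif2c had 25.7, 16.3 and 17.2 FPKM in allograft tumors, 9.10, 10.3 and 8.15 in metastases, 7.26, 0.547 and 0.721 in primary tumors and 0.287, 0.166 and 0.236 in proximal tubule cells. Kif20a had 52.1, 26.3 and 24.7 FPKM in allograft tumors, 11.98, 14.4 and 11.5 in metastases, 8.80, 1.135 and 1.03 in primary tumors and 0.404, 0.930 and 1.05 in proximal tubule cells. In these 3 the allograft tumors were above all metastases, and the metastases above all primary tumors. Among these, Kif23 was spread differently, with 37.1, 27.9 and 48.1 FPKM in allograft tumors, 30.8, 35.0 and 28.4 in metastases, 31.1, 5.53 and 11.99 in primary tumors and 0.786, 3.83 and 1.47 in proximal tubule cells. Primary tumor 1 held as much Kif23 as the metastases, and allograft tumor 2 less. On the log2(FPKM + 1) scale Kif23 gave the largest change of the 38 in primary tumors against proximal tubule cells, 2.33 ± 0.52 (adjusted p = 0.00392). That scale understates the change of genes with lower levels in proximal tubule cells, so the ranking depends on the added 1. Between metastases and primary tumors Kif23 gave a smaller change than most, 1.21 ± 0.52 (adjusted p = 0.121). With primary tumor 1 as the single primary tumor these values were 3.53 and 0.01, and without primary tumor 2 the difference between metastases and primary tumors was 0.66.

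Prc1, Anln and Ect2 organise cell division after anaphase: Prc1 crosslinks midzone microtubules, anillin scaffolds the contractile ring and Ect2 activates RhoA there. Prc1 had 71.2, 48.7 and 67.0 FPKM in allograft tumors, 31.6, 35.7 and 34.6 in metastases, 21.3, 6.37 and 6.52 in primary tumors and 2.21, 1.90 and 1.33 in proximal tubule cells. No groups overlapped. Prc1 rose by 4.48 ± 0.37 in allograft tumors, 3.64 ± 0.37 in metastases and 1.94 ± 0.37 in primary tumors against proximal tubule cells (adjusted p = 6.47e-06, 1.84e-05 and 0.00162), and metastases exceeded primary tumors by 1.70 ± 0.37 (adjusted p = 0.0106). Against primary tumor 1 alone the metastases differed by 0.65 (adjusted p = 0.225), and that tumor differed from proximal tubule cells by 3.00. Anln had 23.4, 16.5 and 37.6 FPKM in allograft tumors, 18.1, 21.6 and 17.4 in metastases, 12.9, 0.868 and 1.55 in primary tumors and 0.305, 0.699 and 0.473 in proximal tubule cells. Ect2 had 52.9, 26.3 and 38.9 FPKM in allograft tumors, 15.1, 18.6 and 13.7 in metastases, 10.2, 3.43 and 2.86 in primary tumors and 0.805, 1.44 and 1.39 in proximal tubule cells. Anln overlapped between allograft tumors and metastases and Ect2 did not. Ect2 was higher in allograft tumors than in metastases by 1.22 ± 0.38 (adjusted p = 0.0423), and over the 12 fits that leave out 1 library its adjusted p reached 0.146, without allograft tumor 1. Hmmr, a microtubule-binding partner of the spindle assembly factor Tpx2, had 62.8, 34.3 and 52.6 FPKM in allograft tumors, 23.6, 19.1 and 23.9 in metastases, 21.9, 8.64 and 11.3 in primary tumors and 7.16, 4.32 and 3.44 in proximal tubule cells. It was the second highest of the 38 in the group mean of proximal tubule cells, and was higher in allograft tumors than in metastases by 1.10 ± 0.34 (adjusted p = 0.0417, and 0.14 without allograft tumor 1). The remaining 6 genes, Cenpe, Cenpf, Nuf2, Kif4, Tpx2 and Nusap1, lay between 11.4 and 48.1 FPKM in allograft tumors, between 7.69 and 16.9 in metastases, between 0.511 and 10.9 in primary tumors and between 0.210 and 1.09 in proximal tubule cells.

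The proportions of the 38 genes to one another also varied between groups, first between allograft tumors and metastases. Each level plus 1 FPKM was set against the median of the 38 plus 1 FPKM in its own library, as a log2 ratio. By this measure 7 genes were higher in all 3 allograft tumors than in all 3 metastases and 7 were lower in all 3, beside 2.32% and 65.9% of all genes treated alike. The median of the 38 was itself higher in allograft tumors, so a gene with an unchanged level falls on this measure. The shares of all genes are therefore no reference for these counts, and the same holds for the comparisons with primary tumors that follow. The higher genes were Top2a (0.67 higher on the log2 scale), Ccna2 (0.62), Kif4 (0.56), Kif20a (0.43), Cdk1 (0.38), Ect2 (0.34) and Kif11 (0.32). The lower genes were Cdca8 (-0.97), Spc25 (-0.82), Plk1 (-0.67), Kif23 (-0.65), Nek2 (-0.56), Ccnb2 (-0.42) and Mki67 (-0.37). Mki67 thus stood above the median of the 38 by 1.17 to 1.26 in metastases but by 0.57 to 1.00 in allograft tumors, on the log2 scale. Between allograft tumors and primary tumors 8 genes were higher and 7 lower on this relative scale, beside 0.386% and 88.5% of all genes, with Top2a (1.16), Ccna2 (1.00) and Cdk1 (0.90) the highest and Spc25 (-2.61), Kif23 (-1.35) and Plk1 (-1.26) the lowest. Between metastases and primary tumors 5 were higher and 8 lower, beside 1.01% and 76.0% of all genes. The higher ones were Ccnb1 (0.58), Anln (0.39), Bub1 (0.25), Birc5 (0.18) and Bub1b (0.13), and Spc25 (-1.79), Hmmr (-1.18) and Kif23 (-0.70) were the lowest. The differences from primary tumors rested in large part on primary tumors 2 and 3. There the median of the 38 was 1.45 and 1.603 FPKM, so the added 1 weighs more and shrinks the ratios. Whether these differences hold without it was not tested. Against primary tumor 1 alone, the metastases differed by -0.50 (Spc25) to 0.33 (Nek2) over the 38, with 0.07 for Ccnb1 and 0.04 for Anln, and the allograft tumors by 0.71 for Top2a, 0.60 for Ccna2, 0.40 for Cdk1, -0.67 for Plk1, -1.11 for Kif23 and -1.33 for Spc25. Top2a and Ccna2 thus took a larger place among the 38 in allograft tumors than in either other tumor group, and Kif23 and Spc25 a smaller one.

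Other genes of the cell cycle were followed in 8 lists, whose counts against proximal tubule cells are set beside 52.2% of all genes called higher in allograft tumors, 54.0% in metastases and 48.2% in primary tumors. Of 32 further kinetochore and checkpoint genes, 31 were called higher in allograft tumors, 28 in metastases and 13 in primary tumors against proximal tubule cells, and of 34 further spindle, centriole and cytokinesis genes 32, 33 and 21 were, with 0, 1 and 1 lower. In primary tumors these are 40.6% and 61.8% of the lists, the first below the share of all genes. The largest changes in allograft tumors against proximal tubule cells were those of Sgo1, the protector of centromeric cohesion, at 5.09, and of Cep55, an abscission factor, at 4.71. Condensin, cohesin and separase genes gave 15 of 16 higher in allograft tumors, 15 in metastases and 12 in primary tumors, a count that was 5, 6 and 6 without proximal tubule library 1, 2 or 3. They were led in allograft tumors by the condensin subunit Ncapg at 4.66. Regulators of mitotic entry gave 11 of 14 higher in allograft tumors, 11 in metastases and 8 in primary tumors, led by Pkmyt1, an inhibitory kinase of Cdk1, at 6.79, 5.41 and 4.00. Separate from these stood the anaphase-promoting complex itself, whose 16 listed subunits and partners were at or above 1 FPKM in every library. Of these, 12 were called higher and 1 lower in allograft tumors, 11 higher and 1 lower in metastases and 10 higher in primary tumors against proximal tubule cells, with median changes of 1.21, 1.00 and 0.71, beside 0.66, 0.68 and 0.59 over all genes. Between metastases and primary tumors 1 of the 16 was called, Ube2s, which extends the ubiquitin chains, at 0.86. That count was 0 without metastasis 1, 2 or 3, primary tumor 2 or 3, or proximal tubule library 2 or 3, and 3 without primary tumor 1. Genes of the MuvB complex, E2F factors, pocket proteins and NF-Y gave 16 of 22 higher and 3 lower in allograft tumors, 14 higher and 2 lower in metastases and 9 higher in primary tumors, which are 72.7%, 63.6% and 40.9% of the list and in primary tumors below the share of all genes. Shares near or below that of all genes are no result about a list. Mybl2, a MuvB partner, led in allograft tumors at 3.60 and Rbl2, a pocket protein of resting cells, was lower there at -1.25. S phase genes gave 31 of 32 higher in allograft tumors, 30 in metastases with 1 lower, and 21 in primary tumors against proximal tubule cells, and 22 were higher in allograft tumors than in metastases, 12 after rescaling to the same sum. Of 16 G1 cyclins, kinases and inhibitors, 14 were higher in allograft tumors with 1 lower, 14 in metastases and 8 in primary tumors, and the inhibitor gene Cdkn2a led in allograft tumors with 50.9, 24.2 and 54.1 FPKM, beside 1.45, 0.913 and 1.02 FPKM in metastases and 0.898, 1.09 and 1.30 FPKM in primary tumors, and was listed at 0 in the 3 proximal tubule libraries. After rescaling to the same sum the primary tumor counts of the 8 lists, in the order given here, were 5, 7, 1, 3, 1, 0, 4 and 4, beside 18.6% of all genes called higher. Without primary tumors 2 and 3 they were 26, 33, 14, 10, 9, 11, 27 and 9, beside 43.8% of all genes.

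Markers of other cells moved with the 38 genes in part, and their part in the results was not tested. The summed level of 10 macrophage and myeloid markers, all at or above 1 FPKM in every tumor library, was 4663, 2574 and 1222 FPKM in allograft tumors, 1539, 1306 and 1096 in metastases, 1768, 240 and 288 in primary tumors and 7.45 to 8.39 in proximal tubule cells, where Adgre1, Itgam and Ly86 were at 0 in at least 1 library. Primary tumor 1 exceeded primary tumors 2 and 3 in this sum as it did in the summed 38 genes (495, 108 and 105 FPKM). Fibroblast markers (8 genes) summed to 1178 to 2483 FPKM in allograft tumors, 590 to 699.8 in metastases and 14.2 to 22.9 in proximal tubule cells. In primary tumors 1 to 3 they summed to 1076, 176 and 326 FPKM, so these markers split as the macrophage markers did. Each of the other marker lists had its highest sum among the primary tumors in primary tumor 2 or 3. Lung epithelium markers (8 genes) summed to 5.95 to 21.5 FPKM in allograft tumors and to 12143 to 19280 FPKM in metastases, against 79.8 to 868 FPKM in primary tumors and 311 to 592 FPKM in proximal tubule cells. Most of the sum in primary tumors and proximal tubule cells was Napsa, which the kidney also expresses. Markers of T and NK cells summed to 14.7 to 25.2 FPKM in allograft tumors, 47.0 to 74.0 in metastases, 50.6 to 72.5 in primary tumors and 0.648 to 2.87 in proximal tubule cells, and those of B and plasma cells to 10.1 to 59.6, 135 to 243, 123 to 456 and 0.346 to 1.03 FPKM in the same order of groups. Both lymphocyte lists were thus lowest among tumors in the allograft tumors, whose NOD/scid hosts lack mature T and B cells. Endothelial markers summed to 61.4 to 133 FPKM in allograft tumors, 259.9 to 442 in metastases, 199 to 281 in primary tumors and 56.3 to 80.8 in proximal tubule cells. Red cell markers summed to 479 to 1521, 1718 to 4692, 208 to 1325 and 31.8 to 48.2 FPKM, tumor epithelium markers to 579 to 978, 571 to 635, 330 to 524 and 131 to 184 FPKM, most of it keratins, and markers of other nephron segments to 4.60 to 10.6, 13.9 to 45.9, 343 to 4656 and 310 to 537 FPKM, in that order of groups. Within the tumor epithelium list, Cdh1, the E-cadherin of epithelial junctions, stood at 0.938, 7.87 and 2.01 FPKM in allograft tumors, 49.4, 51.4 and 49.95 in metastases, 38.6, 44.2 and 71.04 in primary tumors and 13.4, 16.1 and 16.9 in proximal tubule cells. Epcam, an epithelial adhesion protein, stood at 0.615, 22.9 and 8.21 FPKM in allograft tumors, 21.6, 23.9 and 22.1 in metastases, 59.2, 45.2 and 118.99 in primary tumors and 6.67, 7.73 and 8.38 in proximal tubule cells. Of the 7 genes of this list, 3 were called higher and 3 lower in allograft tumors against primary tumors.

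**Figure D5:**
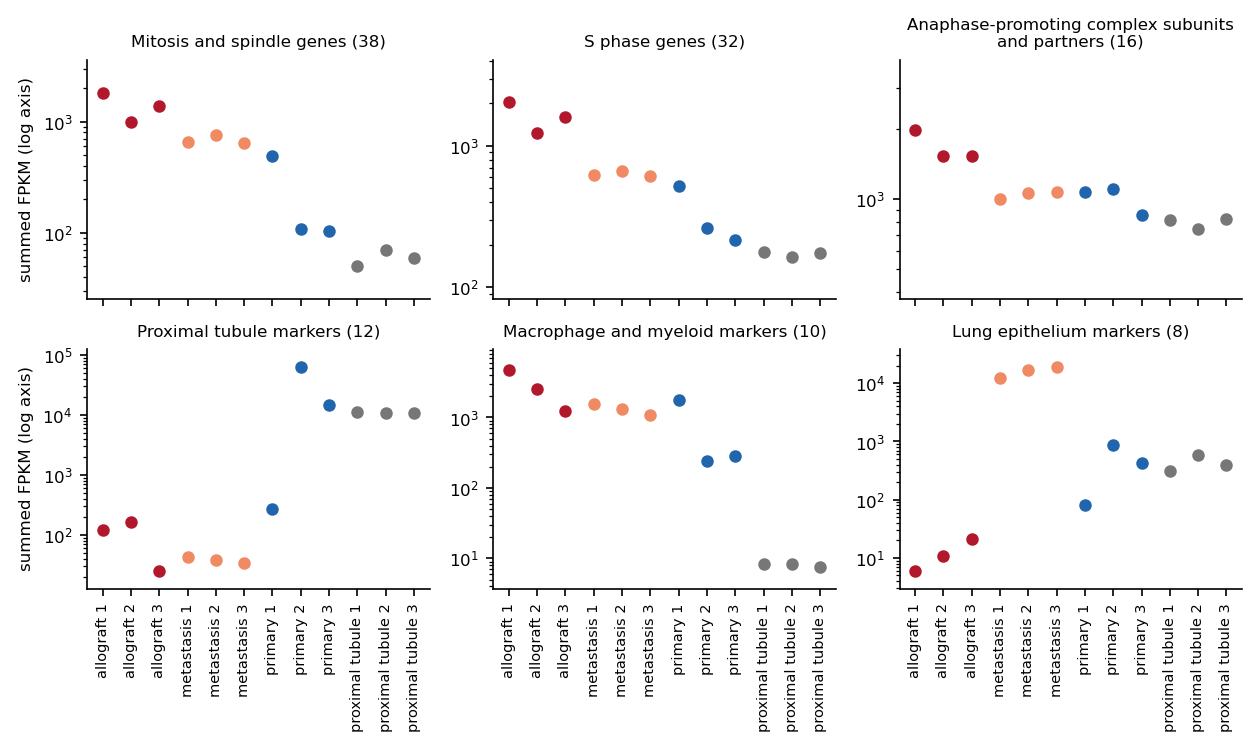
Summed FPKM per library, on log axes, of the 38 genes, of 2 lists of other cell cycle genes and of 3 lists of cell type markers; each point is 1 library, coloured by group. The 38 genes and the macrophage markers are both higher in primary tumor 1 than in primary tumors 2 and 3, where the proximal tubule markers are higher.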

How the data were processed

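RNA sequencing of 12 libraries in 4 groups of 3 was analysed from 1 deposited table. Per the submitters' processing notes, reads were demultiplexed with bcl2fastq 2.17.1.14 and quantified with Salmon against GRCm38 (mm10), and the authors deposited FPKM values per Ensembl gene; no read counts were used, and strand handling was not stated in the sources used. Of 24432 gene identifiers, 24189 were matched to a symbol.

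FPKM were tested as log2(FPKM + 1) with limma 3.58.1 (trend, R 4.3.3) over the 16313 genes that reached 1 FPKM in 3 or more libraries, with all 4 groups in 1 fit and Benjamini-Hochberg adjustment over all genes tested. The fit was checked on simulated data with the same spread in every group. That check does not cover the unequal spread of these groups. Alternatives were other pseudocounts, filters and scalings, array weights, fits of only the groups compared, a replicate block, and leaving out libraries. Changes are given as log2 ± SE. Depth was estimated from the steps between low FPKM of 2396 genes with 1 transcript of more than 1500 bases, since the counts behind the values were not used. Promoter windows were read from RefSeq in build GRCm38.p6 and searched on both strands. Tables were made with Python 3.11.15, pandas 2.3.3, NumPy 2.4.6 and SciPy 1.17.1, and plots with Matplotlib 3.10.9.

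The 38 genes, the other lists and the alternatives were chosen with earlier results of these data known. Values in every library are given for a set of genes listed by symbol and for those with the largest or smallest change of a comparison, and the other members by their range; of each further list the most abundant or most changed genes are named. Hmmr, Cdca3 and Spc24 were picked for per-library values after these had been seen. Equal replicate numbers did not pair the libraries, since the labels tie them to nothing shared. Protein features were not analysed here.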

Additional observations from a re-analysis of the deposited data

How the results depend on the processing

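The counts against proximal tubule cells for allograft tumors and metastases, 37 of 38 each, were 36 or 37 under the 24 alternatives run for each. The count of 17 for primary tumors against proximal tubule cells was 32 with a pseudocount of 0.1 and 9 with 5, 2 after rescaling to the same sum (TPM), 8 with median-of-ratios scaling, 0 with quantile normalization (limma, 2 at an unadjusted p under 0.05), 11 scaled without the 50 most abundant genes, 8 with only the groups compared, 37 without primary tumors 2 and 3, and 12 to 31 when 1 library was left out. Foxm1 gave -0.64 there under quantile normalization (adjusted p = 0.251), the 1 reversal among 63 changes under 24 alternatives; of these 1512 values 1308 kept their direction and side of the threshold, 151 lost the call and 52 gained one. The count of 34 for metastases against primary tumors was 16 with no filter, 0 with only the groups compared (35 at an unadjusted p under 0.05), 0 without primary tumors 2 and 3 (3 unadjusted) and 2 to 37 when 1 library was left out. The count of 37 for allograft tumors against primary tumors was 24 without primary tumors 2 and 3 and otherwise 30 to 38. The count of 2 for allograft tumors against metastases (8 at an unadjusted p under 0.05) was 0 with a pseudocount of 0.1, with no filter, after rescaling to the same sum, with median-of-ratios scaling and without the 50 most abundant genes (3 to 7 unadjusted). It was 8 with a pseudocount of 5, 1 with quantile normalization, 13 with array weights, 20 with only the groups compared, 21 without primary tumors 2 and 3 and 0 to 23 when 1 library was left out. Fits without primary tumors leave the means of allograft tumors and metastases as they were. They change only the estimated spread and the p-values that follow from it. The cause of the other shifts was not tested. With the replicate block the counts were 20, 37, 37, 33, 36 and 1, in the order of primary tumors, metastases and allograft tumors against proximal tubule cells, metastases and allograft tumors against primary tumors, and allograft tumors against metastases. The labels link same-numbered libraries by the number alone, and do not say whether a metastasis and a primary tumor came from the same mouse. Deviations of same-numbered libraries correlated at -0.0433 to 0.0977, and 16 of 36 correlated best with their own number. Over the whole promoter window the CHR was found in 77.1% and both motifs in 68.6% of the 35 windows, beside 19.2% and 7.53% of all windows, and a CHR spelled TTTGAA or TTTAAA, in place of TTTGAA or TTCGAA, in 74.3% of the shorter windows, beside 21.7% of all. The planned comparison of protein features was not run. The estimated depth of proximal tubule libraries, 4800000 to 6200000 fragments, limits their levels: 1 fragment on a transcript of 2 kb is 0.0808 to 0.104 FPKM.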
